A study of Mus musculus with 32 samples.

Results

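The solvent used to carry a senolytic drug pair was compared with water in whole bladders of old mice, to ask which bladder transcripts differ when the gavage fluid alone differs. The comparison held 4 vehicle-gavaged and 5 water-gavaged bladders, 9 of the 32 bladders of the series, chosen by their treatment labels alone. All mice were female C57BL/6 of 26 months from a National Institute on Aging colony, and none of the 9 received a drug. Both groups were gavaged on 3 consecutive days once a month from 21 to 26 months of age, and mice rested before the bladder was taken. The vehicle was 60% Phosal 50 PG, a phosphatidylcholine concentrate in propylene glycol, with 30% polyethylene glycol 400 and 10% ethanol. References of the same age were 6 untreated bladders, from mice that were not gavaged, and 6 bladders of mice given dasatinib at 5 mg/kg/day and quercetin at 50 mg/kg/day (D+Q) in that vehicle. A library held the total RNA of every layer of 1 bladder, so that fewer cells of a type and less RNA per cell cannot be told apart. The libraries kept the numbers of their deposited descriptions, vehicle 1, 2, 4 and 6 and water 1, 2, 3, 4 and 6. The deposited titles number vehicle 4 and 6 as 3 and 4, and water 6 as 5.

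The components of the vehicle enter known pathways. Phosphatidylcholine is built from choline or by methylation of phosphatidylethanolamine, is broken down by phospholipases, and yields choline that the liver and kidney oxidise to betaine. Ethanol and propylene glycol are oxidised by alcohol and aldehyde dehydrogenases. Cells that hold enough cholesterol retain the factor SREBP2 in the endoplasmic reticulum through INSIG proteins, and their genes of cholesterol synthesis are then transcribed less, while sterol and fatty acid ligands act through the nuclear receptors LXR and PPAR. Foreign compounds act through other receptors, of which the aryl hydrocarbon receptor drives the cytochrome P450 gene Cyp1a1. Lists of genes for each of these pathways, for cell states such as stress, inflammation and matrix turnover, and for the cell types of the bladder were used below.

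The libraries held 21252772 to 41630715 counts after vehicle and 18697996 to 49470890 counts after water. At these depths 3 counts corresponded to 0.0606 to 0.160 CPM, counts relative to the library's total. Genes with at least 1 count numbered 18831 to 22237 after vehicle and 19730 to 22327 after water. The share of mitochondrially encoded counts (2.12 to 2.76% against 2.12 to 2.82%) and that of ribosomal protein genes (3.98 to 4.39% against 4.14 to 4.40%) overlapped. Over 6 such measures the smallest two-sided exact permutation p was 0.127, for the share of counts in the 100 most abundant genes, and its adjusted p was 0.762. The tissue label was borne out by its markers in all 9 bladders: Upk1a, a uroplakin of the umbrella cell membrane, was at 1252 to 1580 CPM after vehicle against 1269 to 1427 CPM after water, Krt5 of basal urothelium at 467 to 580 and 469 to 586 CPM, and Myh11, the myosin heavy chain of smooth muscle, at 10780 to 13480 and 10220 to 13840 CPM.

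No gene differed between vehicle-treated and water-treated bladders past the threshold. The table held 32285 genes, of which 17294 went into the quasi-likelihood test of edgeR, and 0 (0%) had a Benjamini-Hochberg adjusted p under 0.05. The smallest adjusted p was 0.9999. An unadjusted p under 0.05 was given by 322 genes, of which 169 (0.977% of those tested) had the higher mean after vehicle and 153 (0.885%) the lower. DESeq2 also called 0 genes and gave 423 with an unadjusted p under 0.05, and limma-voom called 0 and gave 289. The groups did not overlap, that is every vehicle-treated bladder lay above or below every water-treated bladder, for 59 genes with vehicle above (0.341%) and 57 with vehicle below (0.33%). The median log2 fold change over all genes was 0.001, with 50.6% of genes higher after vehicle. With limma on log2(TPM + 1), which scales to the total of the table, 35.7% were higher and the median was −0.03.

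The intervals show how large a difference these 9 bladders leave room for. The 95% interval of the log2 fold change lay within 2-fold in both directions for 15053 genes (87.0%) and within 1.5-fold for 12603 (72.9%). Among the 10854 genes with a mean of at least 10 CPM, 98.6% had an interval within 2-fold and 95.7% within 1.5-fold, and the median distance from the estimate to either limit was 0.16 on the log2 scale. The fitted difference exceeded 4-fold for 47 genes, of which 45 were immunoglobulin genes, 30 higher and 15 lower. The remaining 2, picked out after their values were seen, were Grm6 and Rp1l1, a glutamate receptor and a photoreceptor protein of the retina. Grm6 reached 2.91 CPM in water 2 and 3.97 CPM in water 4 and was at most 0.424 CPM elsewhere, and Rp1l1 reached 6.30 CPM in water 2 and was at most 0.994 CPM elsewhere.

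**Figure D1:**
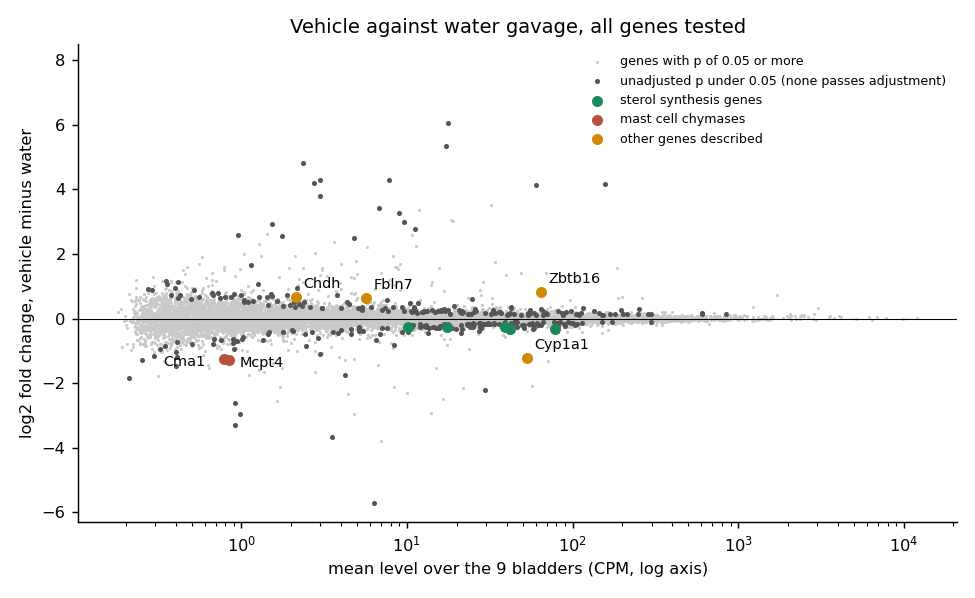
Log2 fold change of vehicle-treated (n = 4) against water-treated bladders (n = 5) for each of the 17294 genes tested (vertical axis), by mean level in CPM (log axis). Dark points are the 322 genes with an unadjusted p under 0.05, none of which passed adjustment, and colours mark sterol synthesis genes, mast cell chymases and other genes described. The points spread more widely at low levels, and those more than 4-fold from 0 are nearly all immunoglobulin genes.

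The genes with the clearest separation were taken as the 10 rises and 10 falls with the smallest p among genes of at least 1 CPM whose groups did not overlap. They were thus chosen on these values, which are given as a description, and 0 of the 20 had an adjusted p under 0.05. The names rise and fall mark only the sign of the fitted difference.

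Bcl6, a transcriptional repressor known from germinal centre B cells that many other cells express (chr16:23965052-23988852 in mm10, minus strand), was at 60.6, 62.1, 59.3 and 62.1 CPM in vehicle 1, 2, 4 and 6 and at 50.4, 52.7, 52.4, 44.5 and 56.8 CPM in water 1, 2, 3, 4 and 6. The vehicle values were nearly equal and the water values spread below them, with a log2 fold change of 0.25 (SE 0.06). Fbln7, a fibulin of the extracellular matrix (chr2:128862981-128897034), was at 5.86, 6.19, 6.58 and 9.74 CPM after vehicle and at 4.93, 4.30, 5.09, 4.42 and 4.01 CPM after water, a log2 fold change of 0.64 (SE 0.16). Vehicle 6 was the highest, and the other vehicle values lay close above the water range. The other rises were Chdh, Cfap74 of motile cilia (0.45), Myct1 (0.51), the adenosine deaminase Adarb1 that edits RNA (0.26), the protocadherin Pcdhb11 (0.69), Vopp1 (0.12), the calcium channel subunit Cacna1a (0.23) and Ptges3l (0.25), the values being log2 fold changes.

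Among the falls, Syne3, which encodes nesprin-3 of the nuclear envelope (chr12:104929933-105009809, minus strand), had the smallest p of all genes, 0.000781 by edgeR (adjusted p = 0.9999). It was at 23.1, 23.4, 22.0 and 21.5 CPM after vehicle and at 28.8, 27.8, 25.8, 26.9 and 26.5 CPM after water, a log2 fold change of −0.27 (SE 0.06). The groups lay apart, and neither held an extreme bladder. Nrarp, a feedback inhibitor of Notch signalling (chr2:25180758-25183339), was at 21.6, 25.2, 22.6 and 24.2 CPM after vehicle and at 31.0, 27.2, 32.1, 26.2 and 34.9 CPM after water (log2 fold change −0.37, SE 0.09). Dkc1 encodes dyskerin, which modifies ribosomal RNA and binds telomerase RNA, and had a log2 fold change of −0.18 (SE 0.05), with 26.3 to 27.5 CPM after vehicle against 28.3 to 31.8 CPM after water. Nle1, a factor of ribosome assembly, was at 12.9 to 14.4 and 15.1 to 18.9 CPM (−0.28, SE 0.08). Of the remaining falls, Fam136a, Bcas3, Btbd11, the ubiquitin ligase Pja1 and Tmem238l had log2 fold changes of −0.14 to −0.18.

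D+Q was given in the same vehicle, and its comparison with untreated bladders shares no bladder with that of vehicle and water. Solvent, gavage and drugs cannot be told apart in that comparison, so that it is no test of the solvent. Of the 20 genes, 5 had the same sign there, 1 of the 10 rises and 4 of the 10 falls, while over the 16954 genes tested in both comparisons 49.1% had the same sign. Syne3 was at −0.14 and Bcl6 at −0.02 on the log2 scale in D+Q against untreated bladders. Several of the 20 genes share exonic bases with a gene on the other strand, Bcl6 with Gm37419, Chdh with Cacna1d, Nrarp with Gm38287, Dkc1 with Mpp1, Nle1 with Fndc8 and Ptges3l with Rundc1 among them, and whether the counting used strand was not stated.

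**Figure D2:**
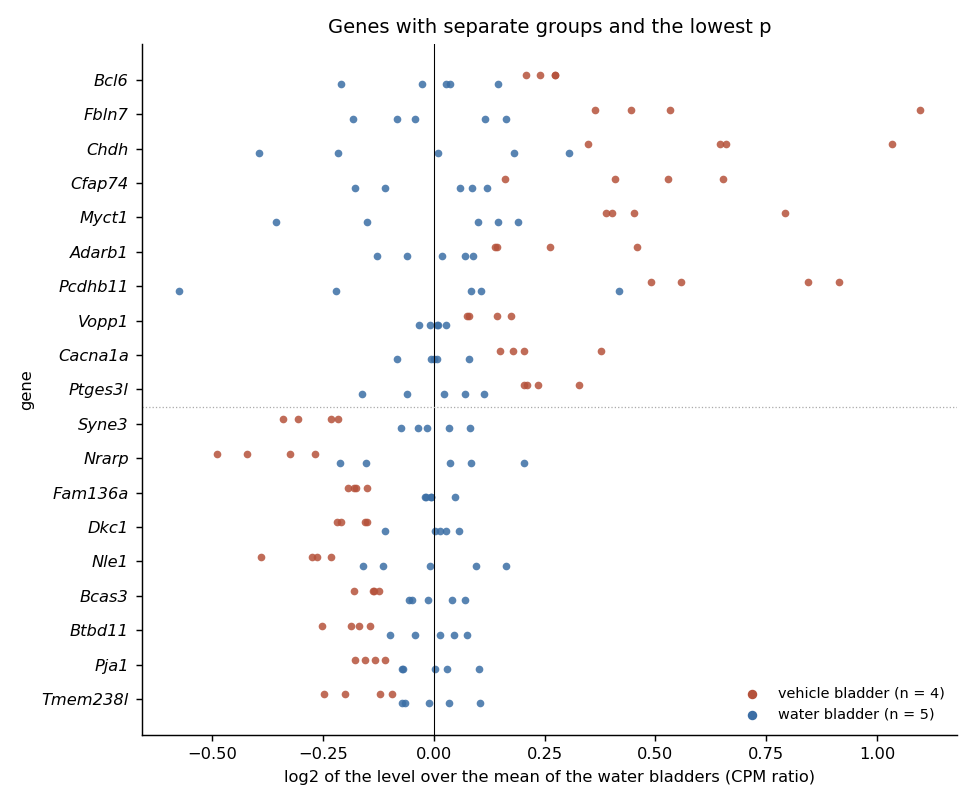
Levels of 19 of the 20 separated genes in each bladder (rows, 10 rises above the dotted line and 9 falls below it), as log2 of the CPM over the mean of the water-treated bladders. Vehicle-treated (n = 4) and water-treated bladders (n = 5) do not overlap for any of the 19, by the way the genes were chosen.

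Few genes that handle the vehicle's own components stood out at an unadjusted p under 0.05. All 32 genes of phosphatidylcholine synthesis, transport and turnover were tested and summed to 1644 to 1697 CPM after vehicle against 1643 to 1690 CPM after water, with a median log2 fold change of 0.01. Pcyt1a, the regulated enzyme of the choline route, had a log2 fold change of −0.03 (95% interval −0.15 to 0.09), and Chpt1, which makes phosphatidylcholine from CDP-choline, a value of 0.02 (−0.15 to 0.19). A single member had an unadjusted p under 0.05, Chdh, the mitochondrial dehydrogenase that takes choline to betaine aldehyde (chr14:30009023-30040527). Chdh was at 2.61, 2.64, 2.13 and 3.42 CPM after vehicle and at 1.27, 1.89, 2.07, 1.68 and 1.44 CPM after water. These values rest on 72 to 108 counts per vehicle-treated and 24 to 83 per water-treated bladder, and the groups do not overlap, although vehicle 4 and water 3 nearly meet. Its log2 fold change was 0.68 (SE 0.19, edgeR adjusted p = 0.9999). Untreated bladders held 1.27 to 2.32 CPM of Chdh, which spans the water range and meets the vehicle range, and D+Q bladders, given the same solvent, held 1.44 to 2.28 CPM.

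For oxidation of ethanol, glycols and aldehydes 23 genes were tested, and 0 had an unadjusted p under 0.05 (median log2 fold change 0.02). Adh1, an alcohol dehydrogenase, was at 394 to 473 CPM after vehicle against 374 to 441 CPM after water (0.04, 95% interval −0.11 to 0.18), and Aldh2, which clears acetaldehyde, at 425 to 530 and 456 to 528 CPM (0.01, −0.16 to 0.17). The 30 targets of PPAR and genes of fatty acid oxidation had a median of 0.01 and 0 members with an unadjusted p under 0.05, as had the 17 tested of the LXR and lipoprotein list (median 0.01). Cpt1a, which commits fatty acids to the mitochondrion, had a log2 fold change of −0.001 (−0.12 to 0.12), and the cholesterol exporter Abca1 a value of 0.06 (−0.34 to 0.47). The NRF2 list of 19 antioxidant genes (median −0.02) and the 13 genes of osmotic stress and water channels (median −0.04) likewise held 0 such genes. For Gclc, the rate-limiting enzyme of glutathione synthesis, the interval was −0.14 to 0.10, and for the water and glycerol channel Aqp3 it was −0.18 to 0.10.

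Of the 8 lists for the vehicle's components, that of sterol and fatty acid synthesis held the most genes with an unadjusted p under 0.05. Of its 31 genes 27 had a lower and 4 a higher mean after vehicle, with a median log2 fold change of −0.13 against 0.001 over all genes. None of the 31 had an adjusted p under 0.05, and 7 (beside 0.885% of all genes) had an unadjusted p under 0.05, all lower. Among them were Hmgcs1, Idi1, Cyp51 and Hsd17b7, enzymes of the pathway from acetyl-CoA to cholesterol, and Insig1, the retention protein of SREBP2. These 5 are known targets of SREBP2. Promoter sequence is shown for Hmgcs1, Insig1 and Hsd17b7, those of the 5 whose stretches hold a motif marked below. The stretches lie upstream of the gene start in mm10 (GRCm38.p6, sequences from RefSeq), for Hmgcs1 at chr13:119690101-119690350 (plus strand), for Insig1 at chr5:28071162-28071362 (plus strand) and for Hsd17b7 at chr1:169969242-169969455 (minus strand), and capitals mark TCACNCCAC, a form of the sterol regulatory element, and CCAAT, the box bound by NF-Y, on either strand:
Hmgcs1: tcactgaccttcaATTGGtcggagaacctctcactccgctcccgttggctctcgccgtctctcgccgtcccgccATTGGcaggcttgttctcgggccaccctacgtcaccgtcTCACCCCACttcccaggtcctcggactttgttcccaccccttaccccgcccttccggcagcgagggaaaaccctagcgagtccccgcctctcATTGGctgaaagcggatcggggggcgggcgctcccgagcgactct
Insig1: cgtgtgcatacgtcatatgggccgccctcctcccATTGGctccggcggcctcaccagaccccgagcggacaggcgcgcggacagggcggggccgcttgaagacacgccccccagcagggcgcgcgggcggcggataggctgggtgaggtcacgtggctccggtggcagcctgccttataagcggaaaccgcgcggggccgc
Hsd17b7: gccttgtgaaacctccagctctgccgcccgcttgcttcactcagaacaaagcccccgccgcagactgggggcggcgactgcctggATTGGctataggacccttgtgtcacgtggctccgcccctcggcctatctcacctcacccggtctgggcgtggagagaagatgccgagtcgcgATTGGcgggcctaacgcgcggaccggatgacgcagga
Of 32851 promoters searched over the 250 bases before the start on both strands, 346 (1.05%) held TCACNCCAC and 11120 (33.8%) held CCAAT. Promoters in the RefSeq table matched 21 of the 31 genes, the 5 named among them. Of the 5, Hmgcs1 held TCACNCCAC and all held CCAAT in those 250 bases, as did 17 of the 21. The shorter stretches of Idi1 (145 bases) and Cyp51 (201 bases) held 0 of either motif and are not printed. Whether SREBP2 has a part in these differences was not tested.

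The level of Hmgcs1, the enzyme that makes HMG-CoA (chr13:119690379-119708260), was 69.5, 71.3, 66.1 and 66.9 CPM in vehicle 1, 2, 4 and 6 and 86.2, 68.3, 75.9, 96.0 and 103 CPM in water 1, 2, 3, 4 and 6. Cyp51, which demethylates lanosterol (chr5:4081145-4104746, minus strand), was at 34.2, 35.3, 38.0 and 39.5 CPM after vehicle and at 51.2, 38.2, 40.2, 47.3 and 51.5 CPM after water. For both genes water 1, 4 and 6 were the high bladders, while water 2 lay inside the vehicle range. Insig1 (chr5:28071363-28078662) was at 32.6, 34.2, 37.2 and 36.2 CPM after vehicle and at 48.5, 36.3, 36.6, 41.4 and 48.0 CPM after water. The log2 fold changes were −0.32 (SE 0.11) for Hmgcs1, −0.31 (SE 0.10) for Cyp51 and −0.26 (SE 0.10) for Insig1. For Idi1, which isomerises isopentenyl diphosphate, the vehicle values were 8.12 to 9.73 CPM and the water values 9.21 to 12.7 CPM (−0.27, SE 0.10), and for Hsd17b7 they were 15.3 to 15.96 and 14.3 to 20.6 CPM (−0.27, SE 0.10). The groups overlapped for each of these 5 genes, always through water 2 and for Insig1 also through water 3. The exons of Hmgcs1 and Cyp51 overlap those of Gm48342 and Akap9 on the other strand.

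The count of sterol genes depended on single bladders. Water 4 and water 6 were both left out in an alternative chosen after seeing the data. The median over the 31 genes was then −0.12, and 0 genes had an unadjusted p under 0.05. In that fit the log2 fold change was −0.17 for Hmgcs1 and −0.23 for Cyp51, beside −0.32 and −0.31 with all 9 bladders. Without vehicle 1 and 4 the count of genes at that p was also 0 (median −0.12). Leaving out single bladders gave 4 to 14 genes and medians of −0.09 to −0.18, with the lowest counts without water 1, water 6, vehicle 1 or vehicle 2 and the highest without water 2 (where 1.302% of all genes were lower at an unadjusted p under 0.05). A fit that also held the untreated and D+Q bladders gave 13 genes (1.74% of all genes lower at that p), and a fit of all 6 groups of the series 14 (1.53%). Fatty acid genes of the same list went the other way in vehicle 4: Scd1, the desaturase that makes oleate, was at 628 CPM there and at 188 to 263 CPM in the other 8 bladders, and Fasn, fatty acid synthase, at 387 CPM there and at 197 to 275 CPM elsewhere.

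Against untreated bladders, which both gavage groups share as reference, the 31 genes had medians of 0.01 after vehicle, 0.15 after water and 0.07 after D+Q. Cyp51 was 33.5 to 40.5 CPM in untreated, 34.3 to 39.6 CPM in vehicle-treated, 37.9 to 51.5 CPM in water-treated and 34.2 to 45.5 CPM in D+Q-treated bladders on a scale common to the 21 bladders of this age. Insig1 was at 33.96 to 38.2, 32.65 to 37.1, 36.1 to 48.7 and 34.8 to 45.7 CPM in the same order. For these genes the log2 fold change against untreated bladders was −0.02 and −0.01 after vehicle and 0.29 and 0.26 after water. The other 3 genes named had negative values after vehicle and positive values after water. Hmgcs1 was at 69.2 to 81.5 CPM in untreated and 65.95 to 71.4 CPM in vehicle-treated bladders, with vehicle 4 and 6 below the untreated range, and its log2 fold change was −0.15 after vehicle (unadjusted p = 0.00773, adjusted p = 0.455 by edgeR) and 0.17 after water. Idi1 was at −0.16 and 0.11, and Hsd17b7 at −0.13 and 0.14. None of the 5 genes named had an adjusted p under 0.05 against untreated bladders, the edgeR adjusted p for Insig1 after water being 0.142.

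**Figure D3:**
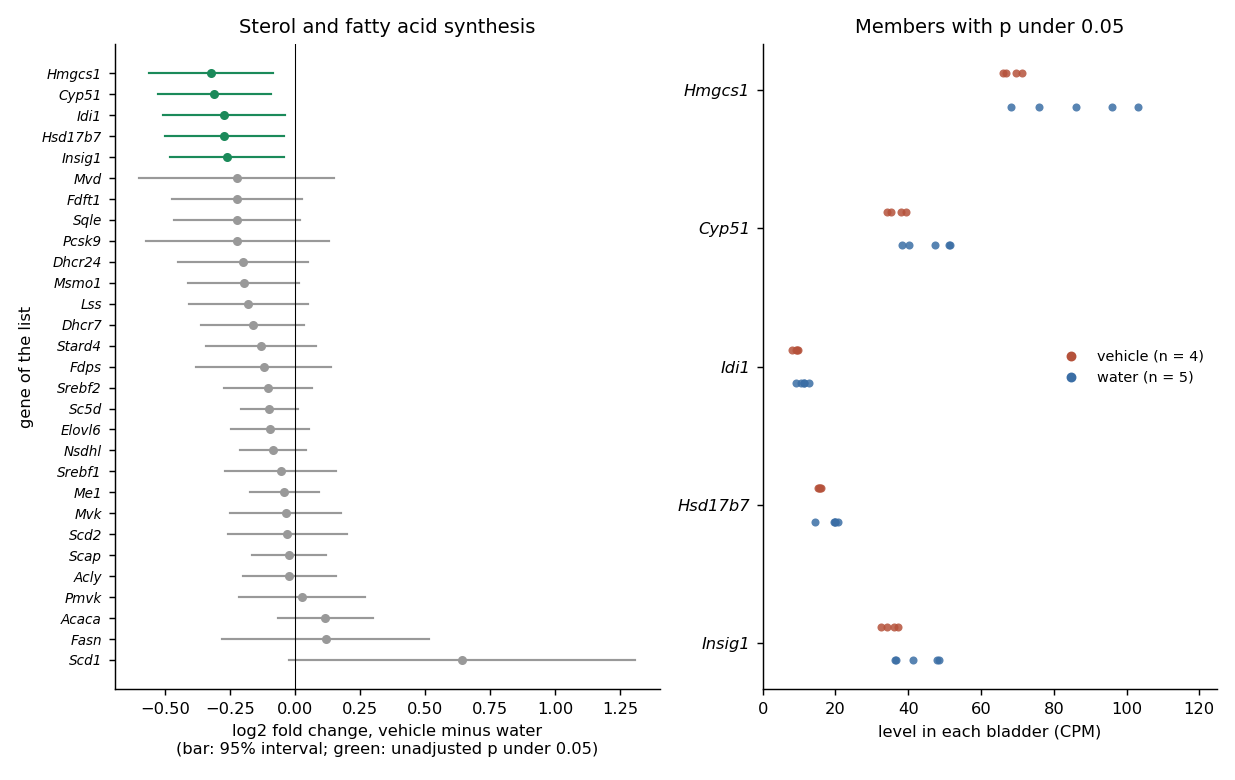
Left, log2 fold change of vehicle-treated against water-treated bladders for 29 of the 31 genes of sterol and fatty acid synthesis, with 95% intervals as bars and 5 genes with an unadjusted p under 0.05 in green. Right, the CPM of those 5 genes in each of the 4 vehicle-treated and 5 water-treated bladders, where the vehicle values cluster at the low end of a wider water range.

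Among 29 tested genes of foreign compound metabolism and transport (median −0.02) the only member with an unadjusted p under 0.05 was Cyp1a1, the classical target of the aryl hydrocarbon receptor (chr9:57687928-57703824). It was at 53.1, 21.0, 21.6 and 28.0 CPM after vehicle and at 43.0, 42.9, 22.5, 114 and 136 CPM after water, a log2 fold change of −1.21 (SE 0.52, edgeR adjusted p = 0.9999). Water 4 and 6 stood far above the other 7 bladders, whose ranges overlapped, and without those 2 the log2 fold change was −0.22. Cyp1b1, another target of that receptor, was also highest in water 4 (181 CPM) and water 6 (184 CPM), with 60.2 to 146 CPM in the other bladders. Untreated bladders held 26.8 to 67.0 CPM of Cyp1a1 and D+Q-treated bladders 18.1 to 71.7 CPM.

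Water 4 and 6 stood apart in several immediate early genes too, genes that cells induce within minutes of a stimulus, many of them for transcription factors. Nr4a1, an orphan nuclear receptor, was at 209 and 210 CPM there and at 14.1 to 45.7 CPM in the other 7 bladders. Fosb was at 20.7 and 15.4 CPM against 1.16 to 6.70 CPM, Jun at 171 and 178 CPM against 47.4 to 113 CPM, and Atf3 at 13.1 and 26.5 CPM against 3.17 to 8.36 CPM. Dusp1, a phosphatase gene also induced early, did not set these bladders apart. It had 1351 of 49470890 counts in water 4, 1200 of 36397202 in water 6 and 1281 of 21252772 in vehicle 6. Of the 18 tested genes of the list 15 had a lower mean after vehicle (median −0.15), and 1, Nr4a2, had an unadjusted p under 0.05 (log2 fold change −0.82, SE 0.36). Without water 4 and 6 the count was 6 of 18 lower and the median 0.03. For Nr4a1 the fitted difference turned from −1.33 to 0.81. In untreated bladders Nr4a1 was at 47.9 to 116 CPM and in D+Q-treated bladders at 25.7 to 182 CPM. The part that the state of these libraries has in the sterol and Cyp1a1 differences was not tested beyond leaving them out.

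Of the cell type lists, mast cell markers held the most members separated downward, 2 of 5 tested beside 0.33% of all genes. Mast cells store chymases and tryptases in granules, and 5 of the 8 listed genes were tested (median −0.67), of which 2, the chymases Mcpt4 and Cma1, had an unadjusted p under 0.05 and did not overlap between groups. Mcpt4 (chr14:56059629-56062313, minus strand) was at 0.532, 0.646, 0.294 and 0.380 CPM after vehicle and at 1.27, 1.36, 0.991, 0.872 and 1.19 CPM after water. These levels rest on 22, 24, 12 and 8 counts in the vehicle-treated and 24, 51, 35, 43 and 42 counts in the water-treated bladders. The log2 fold change was −1.27 (SE 0.27, unadjusted p = 0.000922, adjusted p = 0.9999 by edgeR). Cma1 (chr14:55941451-55944675, minus strand) was at 0.532, 0.512, 0.318 and 0.427 CPM after vehicle and at 0.742, 1.39, 0.594, 1.14 and 1.44 CPM after water (−1.25, SE 0.32). Water 1 and 3 were nearest to the vehicle range.

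The other mast cell genes did not separate the groups. The tryptase Tpsb2 was at 0.391 to 0.807 CPM after vehicle against 0.481 to 1.27 CPM after water (−0.67, SE 0.32), and the carboxypeptidase Cpa3 at 0.296 to 0.581 and 0.159 to 0.818 CPM (−0.43, SE 0.38). Kit, the receptor of stem cell factor, which interstitial cells of the bladder wall also express, was at 48.0 to 63.0 CPM after vehicle, and at 29.5 and 24.8 CPM in water 4 and 6 against 47.1 to 59.9 CPM in the other water-treated bladders. Tpsab1, Mrgprb1 and Fcer1a did not pass the filter on low counts, and without that filter 3 of the 8 listed genes had lower means at an unadjusted p under 0.05. Leaving out single bladders kept 2 or 3 mast cell genes with an unadjusted p under 0.05. Without water 4 and 6 the log2 fold changes were −1.37 for Mcpt4 and −1.03 for Cma1. With at least 10 counts required in every bladder 2 genes of the list were tested (median −0.20), and 0 had such a p. Neither chymase was among them, since vehicle 6 held 8 counts of Mcpt4 and 9 of Cma1. Mcpt4 spanned 0.315 to 1.33 CPM in untreated and 0.191 to 1.61 CPM in D+Q-treated bladders, ranges that hold nearly all values of both gavage groups. Cma1 spanned 0.599 to 1.49 CPM in untreated and 0.510 to 1.40 CPM in D+Q-treated bladders. Every vehicle value of Cma1, at most 0.534 CPM, lay below the untreated range (adjusted p = 0.399 by edgeR against untreated bladders). Against untreated bladders the log2 fold change of Mcpt4 was −0.84 after vehicle, 0.43 after water and 0.11 after D+Q, and that of Cma1 was −1.06, 0.20 and −0.14. Chymase genes resemble each other in sequence, and how reads that map to several genes were counted was not stated.

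**Figure D4:**
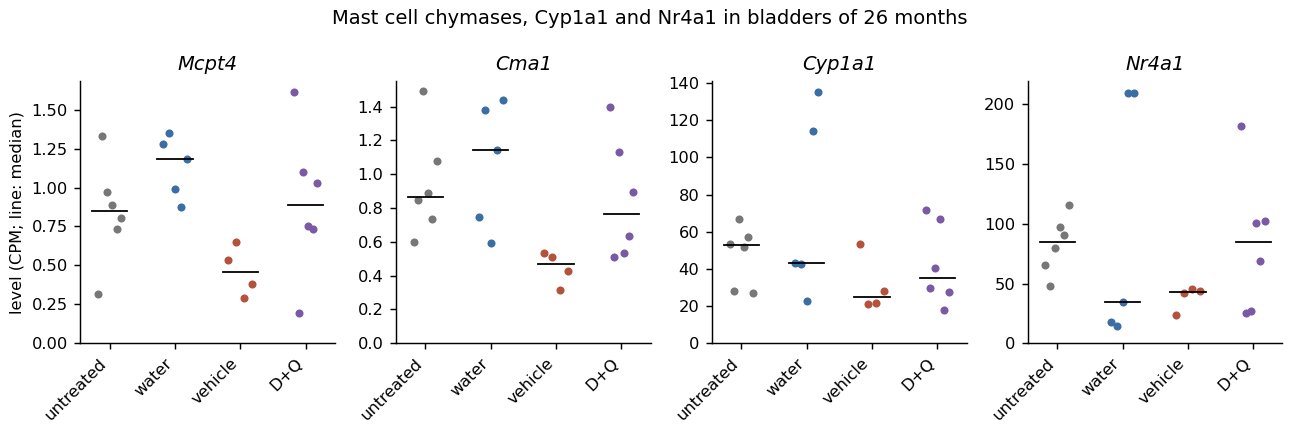
Levels of the chymases Mcpt4 and Cma1, of Cyp1a1 and of Nr4a1 in CPM in untreated, water-treated, vehicle-treated and D+Q-treated bladders, a point per bladder with the group median as a line. The 4 vehicle-treated bladders lie below the 5 water-treated ones for both chymases, and water 4 and 6 are the highest bladders for Cyp1a1 and Nr4a1, with a D+Q-treated bladder at 182 CPM next for Nr4a1.

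Lists of cell state gave few single genes. In the glucocorticoid list (17 genes, 9 higher and 8 lower) Zbtb16, a zinc finger factor induced by glucocorticoids and progestins, was at 125.2, 67.3, 83.0 and 66.1 CPM after vehicle and at 38.6, 32.2, 66.2, 55.6 and 47.9 CPM after water. Its log2 fold change was 0.83 (SE 0.23, edgeR adjusted p = 0.9999), with vehicle 1 highest and water 3 level with vehicle 6. Fkbp5 and Tsc22d3, further targets of the glucocorticoid receptor, had log2 fold changes of 0.24 (95% interval −0.06 to 0.55) and −0.22 (−0.81 to 0.38). Zbtb16 spanned 50.2 to 111 CPM in untreated and 40.7 to 122 CPM in D+Q-treated bladders. Of 18 clock genes 16 had a lower mean after vehicle (median −0.08), and Ciart, a repressor of the clock, was at 15.4 to 21.3 CPM after vehicle against 18.3 to 28.5 CPM after water (−0.44, SE 0.15, adjusted p = 0.9999 by edgeR), while Dbp, a clock output gene, differed by −0.01 (−0.13 to 0.11). Water 4 and 6 held the highest summed level of the clock genes, 2025 and 2009 CPM against 1681 to 1914 CPM in the other 7 bladders, and without them 12 of 18 were lower (median −0.02). The median was −0.15 without vehicle 1 and −0.04, with 12 lower, without vehicle 4.

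Of 26 collagens and matrix remodelling genes 22 had a higher mean after vehicle, with a median log2 fold change of 0.10, and 3 (beside 0.977% of all genes) had an unadjusted p under 0.05. They were the basement membrane collagens Col4a1 (0.15, SE 0.06), Col4a2 (0.17, SE 0.06) and Col15a1 (0.22, SE 0.07). Col15a1 was at 133, 167, 148 and 142 CPM after vehicle and at 123, 118, 136, 126.2 and 129 CPM after water, so that vehicle 1 and water 3 crossed. All 10 fibroblast markers had a higher mean after vehicle (median 0.10), of which Dpt, the matrix protein dermatopontin, had an unadjusted p under 0.05 (log2 fold change 0.33, SE 0.12). Col1a1, the major fibrillar collagen, was at 2387 to 2761 CPM after vehicle against 2360 to 2500 CPM after water. Without vehicle 1 the matrix list held 10 genes with an unadjusted p under 0.05 and higher means, where 2.60% of all genes did, without vehicle 6 it held 5, and without vehicle 2 it held 2 (median 0.06). In the fit of all 6 groups it held 0. The fibroblast list held 5 such genes without vehicle 1 and 0 without vehicle 2 (median 0.06), vehicle 4 or water 1. Against untreated bladders, the reference of both groups, the fibroblast median was 0.02 after vehicle and −0.08 after water. The matrix median was 0.04 and −0.02 in the same order. The lists for the unfolded protein response (18 genes tested), heat shock (14), interferon (22), MHC class II (11), chemokines and cytokines (18), mitochondrially encoded genes (13) and cell cycle (18) had medians of −0.10 to 0.14 and 0 genes with an unadjusted p under 0.05 in either direction.

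The vehicle-treated bladders differed more among themselves than the water-treated ones did, in the pairs that held vehicle 1 or 6. Over all genes, Pearson's r of log2 levels was 0.961 to 0.984 for the 6 pairs of vehicle-treated bladders. It was 0.980 to 0.989 for the 10 pairs of water-treated bladders and 0.970 to 0.989 for the 20 pairs across groups. Vehicle pairs with vehicle 1 or 6 were at 0.961 to 0.979, and vehicle 2 with 4 was at 0.984, within the water range. The first principal component of 15081 genes (38.3% of the variance) had vehicle 1 at its positive end (35.4) and vehicle 4 at its negative end (−29.8), with the water-treated bladders at −20.4 to 16.2. Immunoglobulin genes such as Ighg2b, Ighg1 and Igkc lay at the end of vehicle 4. The second component (16.8%) was set by vehicle 6 (−30.7). That bladder was at 0.972 to 0.977 with the water-treated ones. It held the fewest genes with a count, 18831 at 21252772 counts, beside 19730 at 18697996 counts in water 1. The SD of log2 level was larger among vehicle-treated bladders for 61.2% of genes (56.3% without vehicle 1), with medians of 0.160 and 0.135 after vehicle and water.

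**Figure D5:**
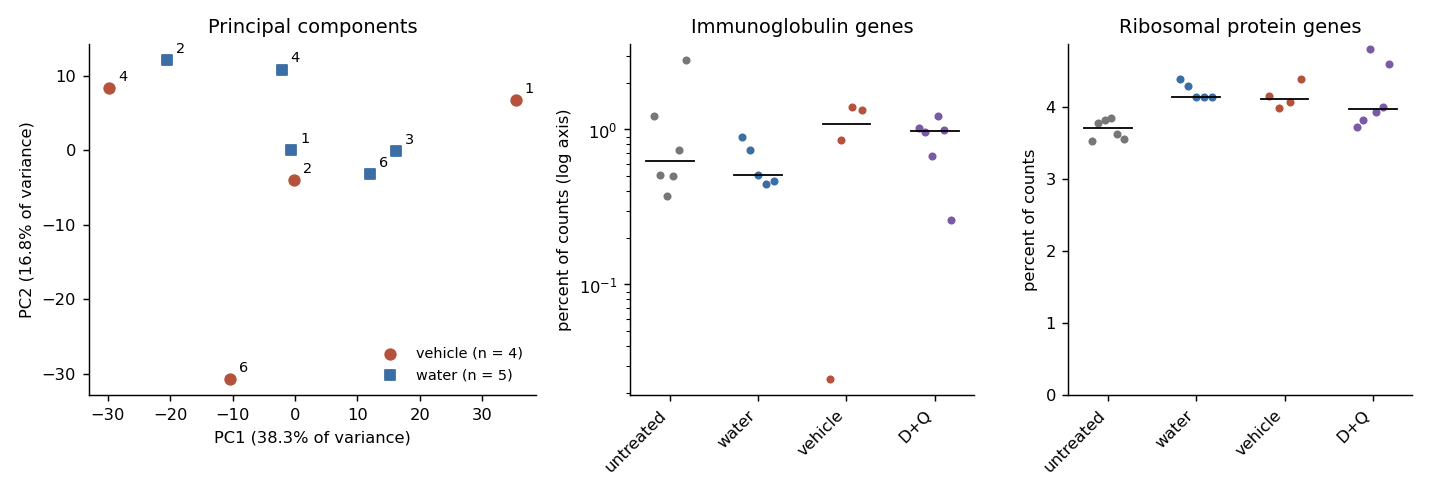
Left, scores of the 9 bladders, numbered as in their deposited descriptions, on the first and second principal component. Middle and right, the percent of counts on immunoglobulin genes (log axis) and on ribosomal protein genes in untreated, water-treated, vehicle-treated and D+Q-treated bladders, a point per bladder with the group median as a line. The vehicle-treated bladders occupy both ends of the first component, vehicle 1 is alone at 0.0245% immunoglobulin counts, and the ribosomal share of both gavage groups lies above that of untreated bladders.

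Plasma cells secrete immunoglobulin, and their transcripts varied widely within both groups. Immunoglobulin genes took 0.0245% of counts in vehicle 1 and 0.854 to 1.41% in the other vehicle-treated bladders, against 0.447 to 0.892% after water (exact permutation p = 0.333, two-sided). Ighm, the heavy chain of IgM, was at 117, 3386, 6224 and 3974 CPM after vehicle and at 4375, 3011, 2701, 1645 and 1889 CPM after water, and Ighg3 was at 1237 CPM in vehicle 6 and 3.34 to 60.7 CPM elsewhere. Vehicle 1 was thus lowest and vehicle 4 highest for Ighm, while Ighg3 was high in a different bladder. Of the 16 plasma cell and constant region genes 13 had a higher mean after vehicle (median 0.37) and 1, Ighg3, an unadjusted p under 0.05 (log2 fold change 4.16, SE 1.44), which was 0.76 without vehicle 6. The median was 0.74 without vehicle 1, with 8 genes at an unadjusted p under 0.05, and 0.04 without vehicle 4. With limma-voom 7 of the 16 had a higher mean (median −0.04), and with limma-trend on log2(TPM + 1) 8 (median 0.02). With the replicate block 11 had a higher mean (median 0.08). The median of this list was thus lower than 0.37 in these 3 fits, and its sign turned with limma-voom alone among them. Against untreated bladders the median of the list was −0.05 after vehicle and −0.63 after water.

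Fat cells were uneven in the same way. Adipoq, the fat cell hormone adiponectin, was at 0.605, 2.05, 12.2 and 10.7 CPM after vehicle and at 0.265, 6.72, 2.86, 6.14 and 1.95 CPM after water. Vehicle 4 and 6 were the highest and vehicle 1 and water 1 the lowest. The 9 tested adipocyte markers had a median log2 fold change of 0.80 with 0 genes at an unadjusted p under 0.05, and the median was 0.02 without vehicle 4 and 0.45 to 1.19 without other single bladders. With limma-voom it was −0.02, with 4 of 9 higher. Against untreated bladders the adipocyte median was −0.27 after vehicle and −1.10 after water. B cell markers summed to 58.3 to 503 CPM after vehicle against 56.2 to 506 CPM after water, and T cell markers to 25.5 to 145 and 45.4 to 124.8 CPM, with median log2 fold changes of −0.15 and −0.05 that took either sign when single bladders were left out (−1.16 to 0.30 and −0.73 to 0.28). Macrophage, neutrophil and stratified epithelium lists had medians of 0.03 to 0.11. The 6 erythroid genes all had lower means after vehicle (median −0.22), without an unadjusted p under 0.05, at summed levels of 101 to 165 and 125.9 to 196 CPM. Urothelial, smooth muscle, endothelial, Schwann cell and mesothelial lists had medians of −0.02 to 0.06. Of skeletal muscle genes Actn3 alone had an unadjusted p under 0.05 (log2 fold change 0.73, SE 0.27), with 3.00 to 6.46 CPM after vehicle against 1.64 to 3.68 CPM after water.

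A panel of 16 senescence and secretory genes that the study followed was read in full, with 12 tested and 0 at an unadjusted p under 0.05 (median −0.10, and 0.09 without vehicle 1). Cdkn1a, which encodes the cell cycle inhibitor p21, was at 76.5, 74.8, 62.9 and 73.5 CPM after vehicle and at 84.7, 78.3, 78.3, 71.9 and 89.8 CPM after water, a log2 fold change of −0.16 (95% interval −0.33 to 0.01). Most vehicle values lay below most water values, and the groups overlapped through water 4. Cdkn2a, which encodes p16 and p19Arf, was at 1.56 ± 0.40 CPM (SD, n = 4) and 1.68 ± 0.32 CPM (SD, n = 5), a difference of −0.09 with an interval of −0.58 to 0.40. The stromelysin Mmp3 (0.37, −0.17 to 0.91), the macrophage marker Adgre1 (0.23, −0.17 to 0.62), Itgam (0.18, −0.26 to 0.62), Ptgs2 (0.14, −0.64 to 0.93) and Il10 (0.15, −1.27 to 1.58) had higher means after vehicle. Ccl2 (−0.24, −1.04 to 0.57), Ccl3 (−0.13, −0.99 to 0.74), Il1b (−0.20, −1.003 to 0.60), Tnf (−0.10, −1.15 to 0.95) and Tgfb1 (−0.11, −0.30 to 0.08) had lower means. Cxcl1, Csf2, Il6 and Mmp13 did not pass the filter on low counts and were not tested, their highest counts in any bladder being 17, 10, 6 and 4. The intervals of Cdkn1a, Cdkn2a and Tgfb1 lay within 1.5-fold and those of the other genes tested did not.

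The gavage groups were also set beside untreated bladders, where they differed in the number of calls though not tested against each other in that respect. With vehicle 0 of 17440 genes tested (0%) had an adjusted p under 0.05 by edgeR, with 1464 at an unadjusted p under 0.05 and 123 calls by DESeq2. With water 173 of 17250 (1%) passed, 84 higher and 89 lower, and with D+Q 0 of 17037 (0%), with 2200 at an unadjusted p under 0.05 and 189 calls by DESeq2. The 173 calls of water were 0 in a fit of all 6 groups and with the replicate block, 99 without the filter on low counts, 693 by DESeq2, and 37 to 199 with single bladders left out, 37 being without water 1. A count of calls also depends on the number of bladders, 4 after vehicle and 5 after water. The called genes after water included 54 of the 77 cytoplasmic ribosomal protein genes, all higher, and none of these was called in the fit of all 6 groups or with the replicate block. Against the same 6 untreated bladders, which these comparisons share, the 77 had medians of 0.19 after vehicle, 0.21 after water and 0.18 after D+Q on the log2 scale, beside 0.002 or less over all genes tested. Between vehicle and water their median was −0.01, with 18 of 77 higher and 0 at an unadjusted p under 0.05. Ribosomal protein genes took 3.53 to 3.84% of counts in untreated and 3.72 to 4.81% in D+Q-treated bladders. Gavage and any difference in when the untreated and gavaged mice were handled cannot be told apart.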

How the data were processed

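RNA of whole bladders was sequenced as stranded total RNA libraries. Per the labels and the study's methods the authors aligned reads with STAR 2.7.3 to mm10 and counted them per gene with Subread featureCounts. The deposited counts are whole numbers, not normalized. The authors also deposited a second table of log2 values, scaled per gene length, and a column of gene lengths (another unit, in bases) used here for TPM. Strand use and treatment of multi-mapping reads were not stated. Samples were grouped by the deposited treatment labels, 0 columns were left unmapped, no 2 bladders held identical counts, and single bladders were the replicates.

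Counts were tested with edgeR 4.0.16 (R 4.3.3, TMM, filterByExpr, quasi-likelihood test, Benjamini-Hochberg adjusted p under 0.05) on the bladders of the 2 groups compared. CPM used the TMM factors. Alternatives were DESeq2 1.42.0, limma 3.58.1, other scalings, filters, samples and replicate blocks, and 3 left-out pairs chosen after seeing the data. Exact permutation tests of 4 against 5 cannot give a two-sided p below 0.0159. Intervals are 95%. Scripts were tested on simulated data. The named genes were the 10 rises and 10 falls with the smallest p among non-overlapping genes of at least 1 CPM with other than predicted names (none passed adjustment), in each solvent or state list the smallest p per direction, the 2 most abundant markers per cell type and the senescence panel. Other list members named were chosen after their values were seen. Members and all 37 lists (565 genes, 562 in the table, 526 tested) were chosen with earlier results of these data known. Over them 0 genes passed, and 8 had higher and 12 lower means at an unadjusted p under 0.05. Some genes of these lists are not reported here. Plots used Python 3.11.15 and matplotlib 3.10.9.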

Additional observations from a re-analysis of the deposited data

Results flagged for a closer look

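Among 86 groups of values checked for a bladder far from the rest of its own group, 4 held one, and chance alone gives about 1 in 20. Myct1 was at 6.32 CPM in vehicle 6 and at 4.77 to 4.98 CPM in the other vehicle-treated bladders. Fam136a was at 25.8 CPM in water 6 and at 24.6 to 24.9 CPM in the other water-treated bladders. The summed umbrella and intermediate urothelium markers were at 6448 CPM in vehicle 6 and at 5330 to 5390 CPM in the other vehicle-treated bladders. The summed skeletal muscle markers were at 591.6 CPM in water 6 and at 433 to 462 CPM in the other water-treated bladders.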

How the results depend on the processing

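The count of 0 genes between vehicle and water held in 25 of 26 alternatives. The exception, chosen after seeing the data, left out vehicle 1 and 4 and called 1 gene, Ighv1-31, which passed the filter there only through the vehicle-treated bladders where it was high, so that its call is no test. With single bladders left out the count was 0 to 0, with 215 to 744 genes at an unadjusted p under 0.05, the most without vehicle 1. Replicate numbers did not pair the bladders: same-numbered deviations correlated at -0.06 to 0.14, and 2 of 8 bladders correlated best with their own number. With the replicate block 0 genes passed (349 at an unadjusted p under 0.05), and with the title numbers 0 (179). Against untreated bladders the counts were 123 with DESeq2 for vehicle and 189 for D+Q. For water, DESeq2 gave 693, no filter 99, all 6 groups 0, the replicate block 0, and left-out bladders 37 to 199, with 68 or fewer without untreated 1, 2, 5 or 6 or water 1, 4 or 6. The cause was not tested. Of 58 named genes under 812 alternatives 0 were called, and 11 values changed sign. With single bladders left out Apod was at -0.013 (without vehicle 1) to 0.41, Hspb1 at -0.033 (without vehicle 6; -0.027 without water 2) to 0.10, H2-Oa at -0.88 (without vehicle 4; -0.011 without water 3) to 0.50, H2-Ob at -1.12 to 0.10 (without water 2; 0.09 without vehicle 1 and 0.05 without water 4), mt-Nd6 at -0.077 to 0.0031 (without vehicle 4) and Tyms at -0.23 to 0.0036 (without vehicle 6). With limma on log2(TPM + 1) H2-Oa was at -0.12. Of 407 list medians under 11 alternatives (single bladders left out, RLE and upper quartile scaling) 53 changed sign, in 20 of 37 lists, although 0 moved by more than the SD of the list's mean log2 level between bladders of a group. Adipocyte and plasma cell medians, 0.80 and 0.37, were -0.02 and -0.04 with limma-voom. Genes near 3 counts, such as Il6, were limited by depth.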

Other observations

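Vehicle 4 also stood apart in other genes of fat synthesis, picked out after their values were seen. Thrsp, a factor of lipid synthesis, was at 31.0 CPM there and at 3.05 to 6.51 CPM in the other 8 bladders, beside the values of Scd1 and Fasn. Scd1 was at 198 to 340 CPM in untreated and 172 to 242 CPM in D+Q-treated bladders.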
